A study of Mus musculus with 17 samples.

Results

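The genes described here are 49 protein-coding genes of the mouse that were near 0 in every healthy progenitor library of the study and were read at a clear level in at least 2 of its 5 acute myeloid leukaemia (AML) libraries. They were chosen by level: below 1 CPM (a gene's counts per 1000000 counts of the library over all gene rows) in each of 12 libraries labelled Normal, and at 5 CPM or more in 2 or more of the 5 libraries labelled AML. Of 20468 protein-coding autosomal genes, 8780 lay below 1 CPM in all 12 Normal libraries, and the 49 are 0.558% of these. The contrast of AML with Normal was used to choose them, so their levels in it are given as a description with no test.

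Each library held RNA of mouse bone marrow cells sorted as cKit+ Lymph- Ery-, a gate that keeps haematopoietic stem and progenitor cells and leaves out lymphoid and erythroid cells. The AML libraries came from 2 compound genotypes: URE het Tet2 KO (UREΔ/+;Tet2-/-, 3 libraries) and URE het Tet2 het (UREΔ/+;Tet2+/-, 2 libraries). The Normal libraries came from Tet2 KO (URE+/+;Tet2-/-), Tet2 het (URE+/+;Tet2+/-), URE het (UREΔ/+;Tet2+/+) and WT (URE+/+;Tet2+/+) mice, with 3 libraries each. The single libraries are called compound KO 1 to 3 and compound het 1 and 2 below, and the controls are described as age-matched. Every AML library carries both kinds of mutation and no Normal library does, so what goes with AML and what goes with carrying both mutations cannot be told apart. The labels do not say whether libraries of a genotype came from separate mice, so a p-value measures only the spread between these libraries.

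The URE is an upstream regulatory element of Spi1, the gene of the myeloid transcription factor PU.1, and deleting it lowers PU.1. Tet2 encodes an enzyme that oxidises methylated cytosine and so helps to remove DNA methylation from regulatory DNA. Genes that blood progenitors do not normally transcribe, such as those of basement membranes, muscle, gland or nerve, are kept silent by the absence of their activators and by repressive chromatin or methylation.

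Gene totals ran from 23520334 to 38254157 counts in AML libraries and from 21102969 to 36745702 counts in Normal libraries, so 1 CPM is 21 counts or more in every library. The progenitor marker Kit was at 118 to 198 CPM in AML libraries and 95.5 to 186 CPM in Normal libraries. The sum of 8 markers of cKit+ progenitors was 8273 to 10700 CPM in AML libraries and 3153 to 10050 CPM in Normal libraries. Most of it was Mpo, at 5375 to 7782 CPM in AML libraries. Cd34 was at 10.2, 0.497 and 0.346 CPM in compound KO 1, 2 and 3. It was at 0.0675 and 92.0 CPM in compound het 1 and 2, against 58.95 to 147.5 CPM in Normal libraries. Cd27 was at 12.5, 2.04 and 2.90 CPM in compound KO 1, 2 and 3. It was at 4.08 and 41.4 CPM in compound het 1 and 2, against 15.9 to 95.7 CPM in Normal libraries. No other marker of the list was below its Normal range in an AML library. Tet2 reads do not report the knockout: Tet2 was at 112, 103 and 155 CPM in compound KO 1, 2 and 3 and at 243 and 195 CPM in compound het 1 and 2, against 73.3 to 190 CPM in Normal libraries. Where in Tet2 the deletion lies is not given in the sources used here, so these gene totals do not check the label.

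The label of the set held in 3 of the 5 AML libraries and not in the other 2. Of the 49 genes, 44 were at 5 CPM or more in compound KO 2, 35 in compound KO 3 and 47 in compound het 1. None reached 5 CPM in compound KO 1 or in compound het 2. The summed level of the 49 genes was 21.3, 1053 and 693 CPM in compound KO 1, 2 and 3 and 947 and 19.3 CPM in compound het 1 and 2, against 6.08 to 10.8 CPM (median 8.14) in Normal libraries. So each compound genotype holds libraries with the set on and a library with it nearly off, and the words silent and active below describe single libraries.

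**Figure D1:**
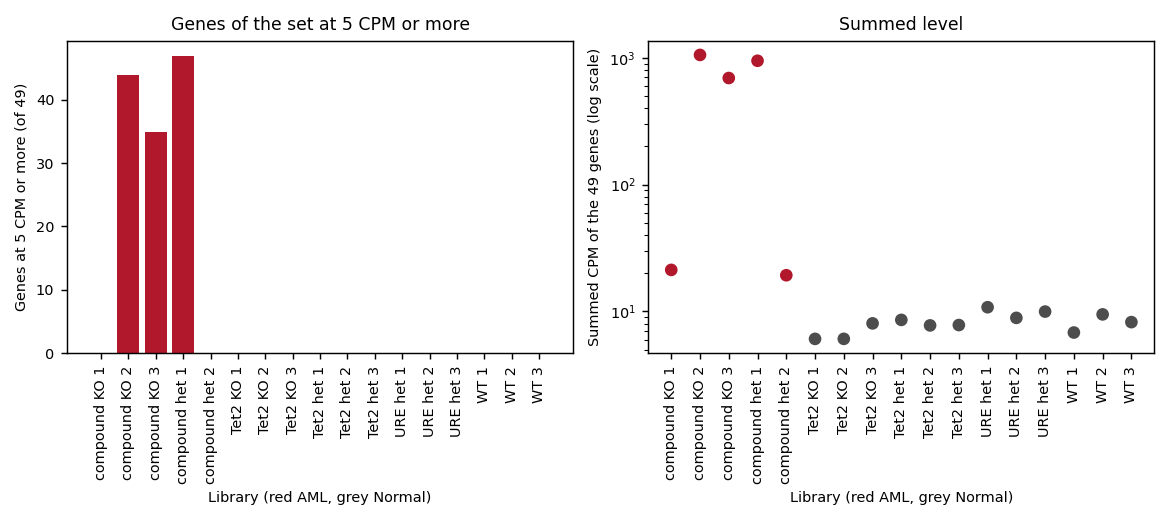
Number of the 49 genes at 5 CPM or more (left, bars) and their summed CPM on a log axis (right, points) in each of the 17 libraries, AML in red and Normal in grey. Bars stand at 44, 35 and 47 genes in 3 AML libraries and at 0 in the other 14, while the summed levels of the remaining 2 AML libraries, 21.3 and 19.3 CPM, lie above the highest Normal sum of 10.8 CPM.

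The same count over all genes silent in Normal gives the background of each library. Of the 8780 silent genes, 0.0228%, 0.797% and 0.513% were at 5 CPM or more in compound KO 1, 2 and 3, and 0.729% and 0.0114% in compound het 1 and 2. That is 2, 70 and 45 genes in compound KO 1, 2 and 3 and 64 and 1 in the 2 compound het libraries. The rule asks for 2 libraries, so the set holds what these lists share, and 56 further genes were at 5 CPM in a single AML library. Within the set, 28 genes reached 5 CPM in compound KO 2 and 3 and compound het 1 alike. Another 14 did so in compound KO 2 and compound het 1, 5 in compound KO 3 and compound het 1, and 2 in compound KO 2 and 3.

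Other measures moved with the same 3 libraries, and their part in the result was not tested. Spi1 was at 99.2, 7.14 and 10.8 CPM in compound KO 1, 2 and 3 and at 22.5 and 43.6 CPM in compound het 1 and 2, against 48.3 to 138 CPM in Normal libraries. Over 316 genes expressed on chromosome 2 between 60 and 160 Mb, a stretch that holds Spi1, the median level relative to the Normal mean was 106%, 45.3% and 43.0% in compound KO 1, 2 and 3. It was 52.6% and 110% in compound het 1 and 2, against 87.2% to 111% in single Normal libraries. Over expressed genes of the whole genome the same median was 106%, 86.5% and 81.5% in compound KO 1, 2 and 3. There it was 101% and 112% in compound het 1 and 2, and 86.8% to 110% in single Normal libraries. Gene counts were 23520334, 38254157 and 37545730 in compound KO 1, 2 and 3 and 29627801 and 37682941 in compound het 1 and 2. Of the libraries with the set nearly off, compound KO 1 was thus the shallowest AML library. The other, compound het 2, was deeper than compound het 1, which had the set on. The part of depth was not tested.

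Markers of other cells were summed per library, among them lymphoid and erythroid cells, which the sort is meant to remove. No marker gene of the 10 lists is among the 49. Several sums differed between the 3 AML libraries with the set on and the other 2, and their part in the result was not tested. The 18 markers of marrow stroma and osteoblasts summed to 145, 296 and 308 CPM in compound KO 1, 2 and 3 and 407 and 165 CPM in compound het 1 and 2, against 114 to 189 CPM in Normal libraries. The stromal sum was thus above every Normal library where the set was on. Most of it came from Vcam1, Runx2, Spp1 and Pdgfrb, each of which was above 1 CPM in every Normal library too. Vcam1 was at 80.9, 149 and 151 CPM in compound KO 1, 2 and 3 and 240 and 48.01 CPM in compound het 1 and 2, against 39.4 to 121 CPM in Normal libraries. Spp1 was at 7.44, 48.1 and 63.5 CPM in compound KO 1, 2 and 3 and 43.6 and 12.9 CPM in compound het 1 and 2, against 4.204 to 17.5 CPM in Normal libraries. Both followed the set, as did Kitl, at 0, 3.16 and 4.24 CPM in compound KO 1, 2 and 3 and 2.94 and 0 CPM in compound het 1 and 2, against at most 0.268 CPM in Normal libraries. Pdgfrb did not follow it, at 4.97, 15.2 and 27.4 CPM in compound KO 1, 2 and 3 and 7.80 and 23.7 CPM in compound het 1 and 2. Its Normal levels were 4.36 to 13.05 CPM. In compound KO 2, Lepr was at 7.03 CPM and Col1a2 at 7.45 CPM, against at most 0.251 and 1.52 CPM in Normal libraries. Of the 18 stromal markers, 10 were below 1 CPM in every AML library, and Col3a1, Dcn and Lum had 0 counts in all 5.

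The 14 markers of monocytes, macrophages and dendritic cells summed to 600.5, 2304 and 2225 CPM in compound KO 1, 2 and 3 and 1621 and 764.5 CPM in compound het 1 and 2, against 554 to 1259 CPM in Normal libraries. This sum was thus above every Normal library where the set was on and inside the Normal range where it was off. The monocyte gene Ly6c2 gave most of this sum, at 423, 2013 and 1908 CPM in compound KO 1, 2 and 3 and 1232 and 490 CPM in compound het 1 and 2, against 262 to 962 CPM in Normal libraries. Vcam1 is counted both here and in the stromal sum. Ccr2, Itgax and Siglech were instead below every Normal library where the set was on. Ccr2 was at 47.28, 15.58 and 43.52 CPM in compound KO 1, 2 and 3. In compound het 1 and 2 it was at 37.97 and 51.61 CPM, against at least 53.26 CPM in Normal libraries. Itgax was at most 0.979 CPM and Siglech at most 0.0266 CPM in compound KO 2, compound KO 3 and compound het 1. Their lowest Normal levels were 2.02 and 0.146 CPM. The macrophage genes C1qa, C1qb and C1qc were below 1 CPM in every AML library. B and plasma cell sums were 112, 393 and 206 CPM in compound KO 1, 2 and 3 and 190 and 182 CPM in compound het 1 and 2, against 92.4 to 152 CPM in Normal libraries. Nearly all of that was Xbp1, which many secretory cells express, and the B cell genes Ms4a1 and Pax5 were below 0.2 CPM in every AML library. Vpreb1 of this list was at 2.04, 0.453 and 1.215 CPM in compound KO 2, compound KO 3 and compound het 1, against at most 0.410 CPM in Normal libraries. Vpreb3 was at 1.02, 0.133 and 1.72 CPM in the same libraries, against at most 0.924 CPM in Normal libraries.

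The sums of T and NK cell, of erythroid, and of mast cell, basophil and eosinophil markers were lower where the set was on. T and NK cell markers summed to 95.0, 18.2 and 29.9 CPM in compound KO 1, 2 and 3 and 29.1 and 112 CPM in compound het 1 and 2, against 67.2 to 177 CPM in Normal libraries. Erythroid markers gave 163, 60.2 and 61.9 CPM in compound KO 1, 2 and 3 and 66.2 and 178 CPM in compound het 1 and 2, against 88.0 to 225 CPM in Normal libraries. In both lists the sums of the 3 libraries with the set on lay below every Normal library and the other 2 inside the Normal range. Most of each sum was a single gene. In compound KO 2, compound KO 3 and compound het 1, Nkg7 was at 16.8, 19.2 and 17.7 CPM and Tfrc at 58.2, 60.1 and 57.8 CPM. Some T and NK markers went the other way in single libraries. Cd3e was at 2.58 CPM in compound KO 3 and Klrb1c at 6.65 CPM in compound het 1, against at most 0.954 and 3.51 CPM in Normal libraries. Mast cell, basophil and eosinophil markers gave 44.9, 21.4 and 29.2 CPM in compound KO 1, 2 and 3 and 20.4 and 125 CPM in compound het 1 and 2, against 96.3 to 302 CPM in Normal libraries. Late neutrophil markers gave 39300, 10730 and 11280 CPM in compound KO 1, 2 and 3 and 28830 and 18360 CPM in compound het 1 and 2, against 28010 to 84010 CPM in Normal libraries. For the mast cell list, compound KO 1 was below the Normal range too. The neutrophil sum did not follow the set. It was inside the Normal range in compound het 1, with the set on, and below it in compound het 2, with the set nearly off. Endothelial sums were 110 to 185 CPM in AML libraries and 94.0 to 272 CPM in Normal libraries, with Cdh5 at 0 in all AML libraries, and megakaryocyte sums 9.89 to 54.8 CPM in AML libraries and 20.8 to 55.4 CPM in Normal libraries. In these bulk libraries, more cells that express a gene and more RNA per cell cannot be told apart.

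The promoter windows of 4 genes described below are shown first, because they differ in CpG content. RNA counts do not report whether these sites are methylated. Each is the RefSeq window (build GRCm38.p6) of 300 bases on the gene's strand, from 250 bases before to 50 after the annotated start, with every CpG in capitals. The F7 window lies at chr8:13025784-13026083 (+) and holds 5 CpG, an observed-to-expected CpG ratio of 0.225. The Csn2 window at chr5:87699376-87699675 (-) holds 2 CpG (ratio 0.179).
F7: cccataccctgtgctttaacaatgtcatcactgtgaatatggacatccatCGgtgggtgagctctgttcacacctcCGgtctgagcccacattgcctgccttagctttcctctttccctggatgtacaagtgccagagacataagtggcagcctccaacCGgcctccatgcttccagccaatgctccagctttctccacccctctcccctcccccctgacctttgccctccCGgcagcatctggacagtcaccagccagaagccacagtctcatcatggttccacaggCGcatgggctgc
Csn2: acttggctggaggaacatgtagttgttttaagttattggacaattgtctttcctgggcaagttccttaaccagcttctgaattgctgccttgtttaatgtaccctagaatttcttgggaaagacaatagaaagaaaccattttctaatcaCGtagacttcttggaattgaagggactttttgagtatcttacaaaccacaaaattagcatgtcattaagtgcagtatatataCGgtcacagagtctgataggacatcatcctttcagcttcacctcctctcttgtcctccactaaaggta
Minar1, at chr9:89622937-89623236 (-), holds 15 CpG (ratio 0.488), and Lamb1, at chr12:31265043-31265342 (+), holds 18 CpG (ratio 0.615). The F7 and Csn2 windows are thus poor in CpG and the Minar1 and Lamb1 windows richer.
Minar1: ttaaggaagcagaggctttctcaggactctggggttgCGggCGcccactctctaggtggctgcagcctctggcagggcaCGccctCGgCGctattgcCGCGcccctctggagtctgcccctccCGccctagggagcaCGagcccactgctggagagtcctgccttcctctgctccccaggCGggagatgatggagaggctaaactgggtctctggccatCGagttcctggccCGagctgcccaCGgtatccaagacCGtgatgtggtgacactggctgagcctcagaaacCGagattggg
Lamb1: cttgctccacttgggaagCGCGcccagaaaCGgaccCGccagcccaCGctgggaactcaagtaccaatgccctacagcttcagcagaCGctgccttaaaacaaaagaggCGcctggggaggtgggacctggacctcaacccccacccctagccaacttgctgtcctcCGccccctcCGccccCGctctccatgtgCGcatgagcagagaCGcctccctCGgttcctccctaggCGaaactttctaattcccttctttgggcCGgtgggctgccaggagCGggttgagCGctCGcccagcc

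The regulators of transcription and RNA number 8 of the 49. Six4, a homeobox factor of the embryonic muscle and kidney programme, had 0, 20.6 and 14.8 CPM in compound KO 1, 2 and 3 and 7.80 and 0 CPM in compound het 1 and 2. Its highest Normal level was 0.0729 CPM and its Normal median 0. Six4 was therefore on in 3 AML libraries and without a count in the other 2. Zfhx4, a large zinc finger homeobox protein, had 7.61, 5.14 and 8.10 CPM in compound KO 2 and 3 and compound het 1, with a highest Normal level of 0.0342 CPM. The circadian repressor Bhlhe41 and the clock activator Arntl2, 930 kb apart on chromosome 6, were both on in compound het 1 and differed in the second library with 5 CPM or more, compound KO 2 for Bhlhe41 and compound KO 3 for Arntl2. Bhlhe41 had 0.0425, 13.96 and 1.86 CPM in compound KO 1, 2 and 3 and 36.2 and 0.0265 CPM in compound het 1 and 2, against at most 0.995 CPM in Normal libraries. Arntl2 had 0, 0.706 and 12.7 CPM in compound KO 1, 2 and 3 and 5.57 and 0.0796 CPM in compound het 1 and 2, against at most 0.577 CPM in Normal libraries. Other regulators are Mlxipl, which drives genes of sugar and fat metabolism, the zinc finger protein Zfp9, and Rbm20, a splicing factor of heart muscle. They peaked at 9.96, 11.2 and 9.19 CPM among the AML libraries.

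The set holds 6 genes of matrix and secreted proteins. F7 encodes coagulation factor VII, a liver protease that starts clotting together with tissue factor. It had 0.595, 62.8 and 60.3 CPM in compound KO 1, 2 and 3 and 134 and 0.876 CPM in compound het 1 and 2, against 0.0272 to 0.702 CPM (median 0.306) in Normal libraries. Per kilobase of merged exon it was the highest of all 49 genes, with a median over the 5 AML libraries of 32.4 CPM per kb, above Mt2 at 12.3, Minar1 at 6.74, Lhfp at 6.09 and Aox1 at 3.76 CPM per kb. The gene of tissue factor, F3, named after its values were seen, had 0 counts in the 3 libraries with high F7 and 0.471 to 3.99 CPM in Normal libraries. F10, the adjacent clotting factor gene 1498 bases away, had 50.5, 9.59 and 19.2 CPM in compound KO 1, 2 and 3 and 62.9 and 20.4 CPM in compound het 1 and 2. Its Normal levels were 9.37 to 34.9 CPM, so both genes were highest in compound het 1, while F10 was inside the Normal range in compound KO 2 and 3, where F7 was high.

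Laminins are the trimers that form the base layer of basement membranes, and 2 of the 7 laminin genes that were silent in Normal belong to the set. Lamb1, a beta chain, had 0.383, 79.5 and 65.0 CPM in compound KO 1, 2 and 3 and 12.96 and 0.318 CPM in compound het 1 and 2, against 0.0729 to 0.684 CPM (median 0.334) in Normal libraries. Lama1, the embryonic alpha chain, had 0, 17.2 and 9.67 CPM in compound KO 1, 2 and 3 and 10.1 and 0.0796 CPM in compound het 1 and 2, against at most 0.192 CPM in Normal libraries. Both chains were within the Normal range in the 2 AML libraries with the set off. None of the 26 collagen genes silent in Normal belongs to the set.

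Lox, which cross-links collagen and elastin, had 0.0425, 93.0 and 2.24 CPM in compound KO 1, 2 and 3. It had 52.8 and 0.0531 CPM in compound het 1 and 2, against at most 0.376 CPM in Normal libraries. Csn2, the milk protein beta-casein, had 0, 56.1 and 0.293 CPM in compound KO 1, 2 and 3 and 11.9 and 0 CPM in compound het 1 and 2, against at most 0.0628 CPM in Normal libraries. Lox and Csn2 were therefore nearly off in compound KO 3, where Lamb1 and F7 were high. Adamts9, a protease of proteoglycans, was more even, with 11.8 and 19.1 CPM in compound KO 2 and 3 and 21.1 CPM in compound het 1.

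**Figure D2:**
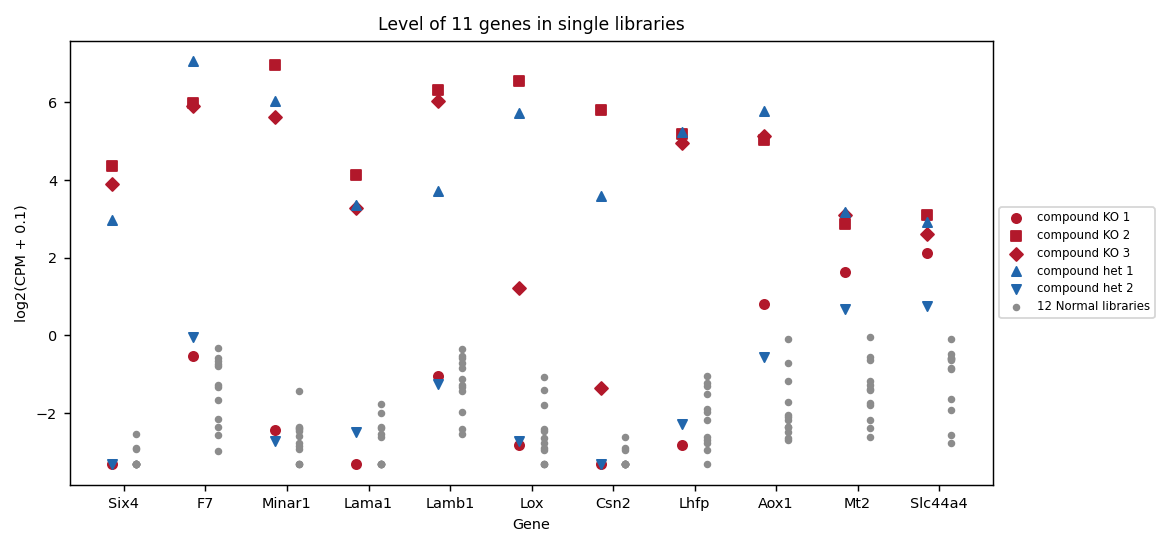
Level of 11 of the 49 genes as log2(CPM + 0.1) in every library; red marks are the 3 compound KO libraries, blue marks the 2 compound het libraries and grey points the 12 Normal libraries. Compound KO 1 and compound het 2 lie among the grey points for most genes, and Lox and Csn2 are low in compound KO 3 as well.

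Proteins of adhesion and the cell surface make up 13 of the 49, the largest role group here. Lhfp, a membrane protein of the tetraspan kind, was the most even of the 49 across the libraries that held it, with 0.0425, 36.5 and 31.1 CPM in compound KO 1, 2 and 3 and 37.9 and 0.106 CPM in compound het 1 and 2. Its Normal libraries reached at most 0.384 CPM. Pmp22, a protein of compact myelin, had 0.0425, 37.96 and 2.08 CPM in compound KO 1, 2 and 3 and 51.0 and 0 CPM in compound het 1 and 2, against at most 0.280 CPM in Normal libraries. Fat1, an atypical cadherin, had 0.255, 29.3 and 5.59 CPM in compound KO 1, 2 and 3 and 7.49 and 0.0265 CPM in compound het 1 and 2, against at most 0.408 CPM in Normal libraries.

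Strc, the stereocilin of inner ear hair cells, was split among the libraries with the set on. It had 0 counts in compound KO 1 and 2, 23.6 CPM in compound KO 3 and 28.6 and 0.0796 CPM in compound het 1 and 2, against at most 0.328 CPM in Normal libraries. Tmem108 had 0.0850, 12.5 and 17.9 CPM in compound KO 1, 2 and 3 and 22.3 and 0.955 CPM in compound het 1 and 2, against at most 0.684 CPM in Normal libraries. Boc, a co-receptor for hedgehog ligands, reached 13.3 CPM, and the junction protein Clmp 18.2 CPM. The other members of this role are the adhesion proteins Cadm2, Pcdhgc3 and Lrrn2, the tetraspanin Tspan12, and Umodl1 and Gpnmb, with highest AML levels from 7.42 CPM (Tspan12) to 17.7 CPM (Umodl1).

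Channels and transporters are 3 of the 49. Cacna1b, the pore subunit of the N-type calcium channel of nerve endings, had 0.553, 6.33 and 19.2 CPM in compound KO 1, 2 and 3 and 12.7 and 0.902 CPM in compound het 1 and 2, against at most 0.507 CPM in Normal libraries. Slc44a4, a choline-family transporter, had 4.25, 8.47 and 6.02 CPM in compound KO 1, 2 and 3 and 7.46 and 1.59 CPM in compound het 1 and 2, against at most 0.839 CPM in Normal libraries. For these genes all 5 AML libraries lay above all 12 Normal libraries. Across the set that was so for 4 genes (Cacna1b, Dlec1, Mt2 and Slc44a4), against 0.748% of all protein-coding autosomal genes; since the rule used this contrast, nothing is read from the share. Kcnn3, a calcium-activated potassium channel, reached 16.9 CPM in compound het 1.

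The cytoskeleton and signalling group holds 11 genes. Minar1, a membrane protein that binds NOTCH2, had 0.0850, 125 and 48.95 CPM in compound KO 1, 2 and 3 and 66.0 and 0.0531 CPM in compound het 1 and 2, against at most 0.273 CPM in Normal libraries. Dlec1, a cilium-linked protein, had 0.893, 22.9 and 20.3 CPM in compound KO 1, 2 and 3 and 25.5 and 2.10 CPM in compound het 1 and 2, against at most 0.746 CPM in Normal libraries. Pdzrn3, a ubiquitin ligase, had 0.128, 34.4 and 7.86 CPM in compound KO 1, 2 and 3 and 1.59 and 0.0265 CPM in compound het 1 and 2, against at most 0.134 CPM in Normal libraries. Pdzrn3 was thus the member lowest in compound het 1, where 47 of the 49 reached 5 CPM. The rest of the group are the actin and microtubule proteins Cald1, Kif1a and Cttnbp2, the GTPase regulator Dlc1, the kinase Mark1, Schip1, Scel and Fam83a. Their highest AML levels ran from 8.08 CPM (Schip1) to 27.4 CPM (Cttnbp2).

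Enzymes and metal-binding proteins are 7 of the 49. Aox1, an aldehyde oxidase, had 1.66, 32.7 and 34.9 CPM in compound KO 1, 2 and 3 and 54.7 and 0.584 CPM in compound het 1 and 2, against at most 0.834 CPM in Normal libraries. Mt2, a metallothionein, had 3.02, 7.22 and 8.50 CPM in compound KO 1, 2 and 3 and 8.91 and 1.51 CPM in compound het 1 and 2, against at most 0.864 CPM in Normal libraries. Its near copy Mt1 had 21.8, 44.8 and 52.5 CPM in compound KO 1, 2 and 3 and 33.4 and 36.6 CPM in compound het 1 and 2, against 6.71 to 19.4 CPM in Normal libraries. Reads of such a pair can be assigned to either gene, so the Mt2 level is less certain. Cyp26a1, which degrades retinoic acid, reached 12.1 CPM, and the others (Me1, Car4, Hs3st3b1 and Lipn) reached 6.82 to 14.4 CPM. Snhg11, an RNA host gene annotated as coding, had 9.49 CPM in compound KO 2, 2.74 CPM in compound KO 3 and 5.97 CPM in compound het 1.

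**Figure D3:**
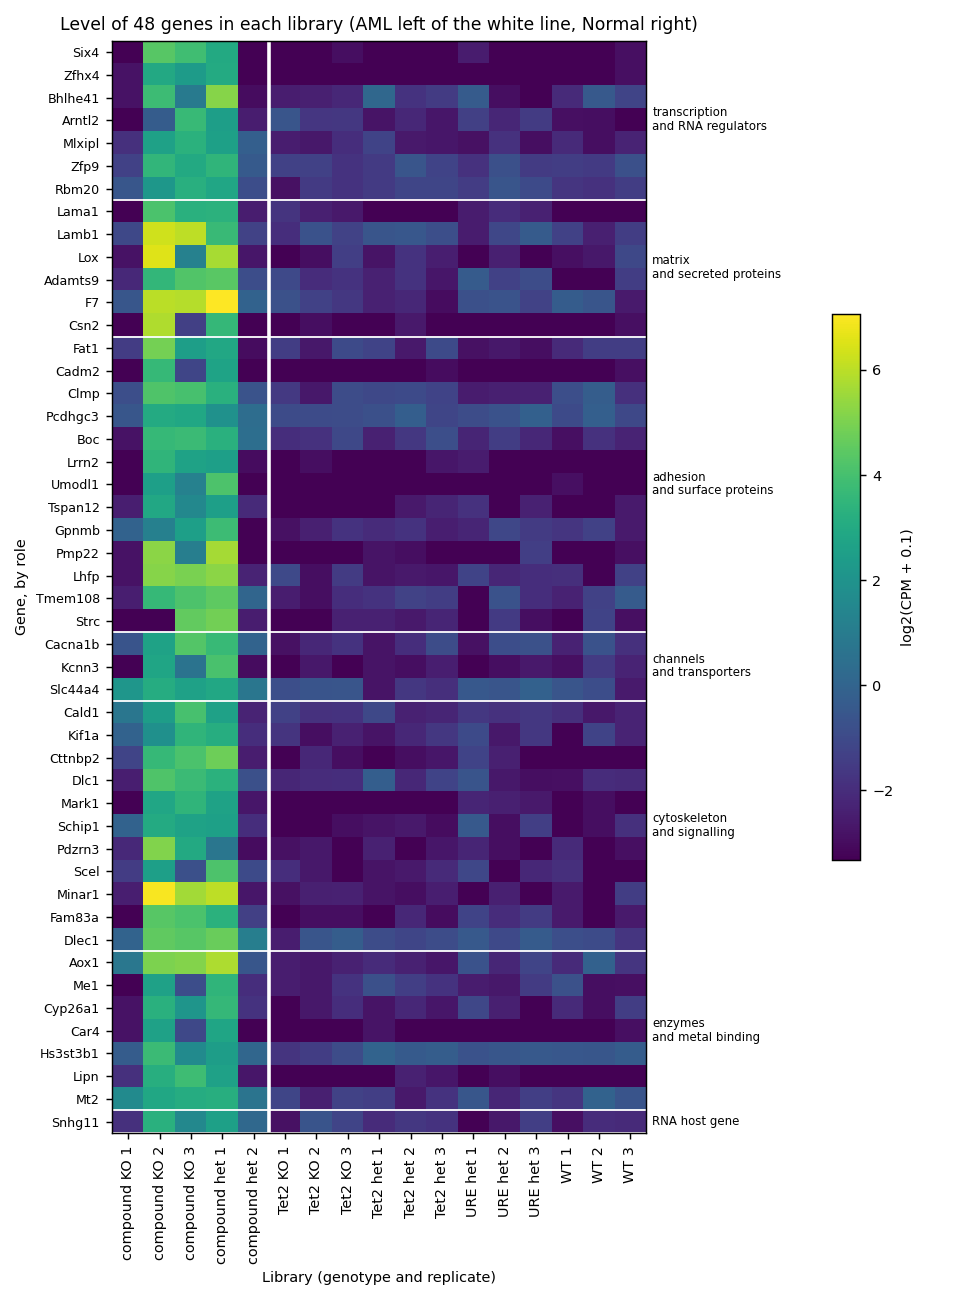
Heat map of log2(CPM + 0.1) for 48 of the 49 genes (rows, grouped by role) in the 17 libraries (columns), AML left of the white vertical line and Normal right of it. The bright block covers compound KO 2 and 3 and compound het 1, with gaps such as Strc in compound KO 2 and Csn2, Cadm2 and Car4 in compound KO 3.

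The genes varied among the libraries that held them. Of the 49, 21 were highest in compound KO 2, 9 in compound KO 3 and 19 in compound het 1. Between the highest and the lowest of these 3 libraries, 18 genes differed by less than 2-fold and 12 by more than 10-fold. In compound KO 1 and compound het 2, 41 of the 49 were below 1 CPM, and the other 8 were Aox1, Boc, Cald1, Dlec1, Mt2, Pcdhgc3, Slc44a4 and Snhg11. No gene of the set was without a count in all 12 Normal libraries, and 4 (Cadm2, Car4, Umodl1 and Zfhx4) had 3 or fewer counts over all of them. For the other 45, the AML mean over the Normal mean ran from 8.05-fold to 1254-fold, with a median of 47.0-fold, a ratio the rule fixes in direction.

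Values near the limits of the rule were as follows. Just inside the limit of 5 CPM, the second-highest AML library was at 5.47 CPM for Hs3st3b1, 5.57 CPM for Arntl2 and 5.77 CPM for Tspan12. Just outside it were Gstm2 at 4.95 CPM, Adgrl3 at 4.89 CPM and Spats2 at 4.87 CPM. Just inside the limit of 1 CPM, the highest Normal library was at 0.995 CPM for Bhlhe41, 0.900 CPM for Hs3st3b1 and 0.864 CPM for Mt2, and just outside it were Grb14 at 1.07 CPM, Fst at 1.09 CPM and Slc4a5 at 1.14 CPM.

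The difference between the compound genotypes, which the rule did not use, asks whether loss of the remaining Tet2 allele goes with the level of these genes. None of the 49 differed between URE het Tet2 KO and URE het Tet2 het at an adjusted p of 0.05 (edgeR's quasi-likelihood test, Benjamini-Hochberg over 19951 genes). Over all genes tested the shares called were 0% higher and 0.01% lower, which is 2 genes, while 871 genes were higher and 1473 lower at an unadjusted p under 0.05. The median log2 fold change of the 49 was 0.58 and that of all genes -0.09. Of the 49, 36 were above 0, against 8823 of the 19951 genes tested. Every member passed the rule through compound KO 2, compound KO 3 and compound het 1 alone, which itself shapes this shift, so nothing is read from it. Standard errors of single genes ran from 0.69 to 2.08, with a median of 1.45. A difference of a few fold was thus not detectable in this design, and the largest log2 fold change, 4.36, did not pass either. The count of 0 therefore does not show that the 2 genotypes are alike. Pdzrn3 had the smallest p, with a log2 fold change of 4.36 ± 1.70 (SE; edgeR adjusted p = 0.343), and was the one gene with an unadjusted p under 0.05. Lamb1 followed with 3.09 ± 1.49 (edgeR adjusted p = 0.437). For F7 the log2 fold change was -0.50 ± 1.36.

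The spread within each genotype was close to its mean or above it. The 49 genes summed to 589 ± 524 CPM in URE het Tet2 KO (SD, n = 3) and 483 ± 656 CPM in URE het Tet2 het (SD, n = 2). DESeq2 called 335 genes over the whole table and limma voom 0, and neither called any of the 49. Without compound het 1, edgeR called 1015 genes, among them 2 of the 49, so the count of 0 rests on that library. These were Cald1 (log2 fold change 6.63, edgeR adjusted p = 0.0205, and 0.0205 to 0.98 over all alternatives) and Gpnmb (edgeR adjusted p = 0.0147, and 0.0147 to 0.99 over all alternatives), which had 0 counts in compound het 2. The lone remaining URE het Tet2 het library is there assumed to vary as the other groups do.

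**Figure D4:**
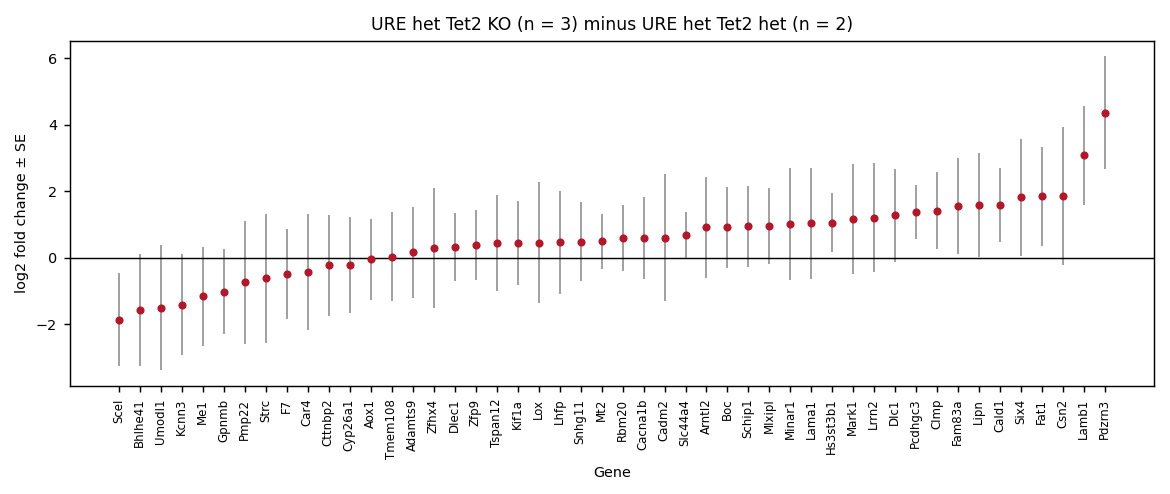
Log2 fold change of 48 of the 49 genes in URE het Tet2 KO (n = 3) minus URE het Tet2 het (n = 2), points with SE bars from edgeR, ordered by size. Pdzrn3 is at 4.36 and Scel at -1.86, and no gene passes an adjusted p of 0.05.

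The single mutants were also set against WT. The rule held all of these libraries below 1 CPM, which largely fixes that no big difference can appear, so nothing is read from the outcome. None of the 49 passed in URE het minus WT, Tet2 het minus WT or Tet2 KO minus WT, and no gene of the whole table did either (0% higher and 0% lower in each, edgeR adjusted p of 0.05). At an unadjusted p under 0.05 none of the 49 stood out in any of the 3 contrasts, while over all genes 296 were higher and 457 lower in URE het, 281 and 304 in Tet2 het, and 120 and 392 in Tet2 KO. Over all genes DESeq2 called 7, 1 and 12 in URE het, Tet2 het and Tet2 KO, and limma voom 79, 0 and 86. The 49 genes summed to 6.74 ± 1.14 CPM in Tet2 KO, 8.05 ± 0.458 CPM in Tet2 het, 9.89 ± 0.951 CPM in URE het and 8.18 ± 1.33 CPM in WT (SD, n = 3 each). The count was repeated with WT alone as the baseline, genotype by genotype, on the same libraries. Of 9152 genes below 1 CPM in all WT libraries, 37 (0.404%) were at 5 CPM or more in at least 2 compound KO libraries, 30 of them in the set. No gene met that condition in URE het Tet2 het, where it asks for both libraries, or in Tet2 KO, Tet2 het or URE het.

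Lists of genes by function and family were read against the 8780 silent genes, of which 0.558% belong to the set. The set held 0 of 29 germline and meiosis genes, 0 of 22 imprinted genes, 0 of 39 genes of the Wnt pathway, 0 of 15 of the Notch pathway, 0 of 28 of the TGF-beta and BMP pathways and 0 of 41 of axon guidance. Among families, it held 0 of 32 Hox genes and 0 of 1080 olfactory receptor genes. The laminins gave the largest share, 2 of 7 (28.6%), a family of few genes.

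The 49 genes were spread over the genome. Chromosome 6 held 9 of its 478 silent genes (1.88%), and chromosomes 4, 7, 10 and 13 held none. Pmp22 and Hs3st3b1 lay 726 kb apart on chromosome 11. Of the 94 genes directly next to a member or overlapping it, and not in the set, 37 were silent in Normal, and 29 of these stayed below 1 CPM in every AML library. Among those that did not, Ckmt1 overlaps Strc, and Gm15737 and A730049H05Rik overlap Adamts9, so their reads may be shared with the member. Of all 8780 silent genes, 8232 stayed below 1 CPM in all 17 libraries, a larger share. The 2 silent neighbours at 5 CPM or more were Aox3, at 11.7 CPM in compound KO 2 beside Aox1, and Cftr, at 13.7 CPM in compound KO 1 beside Cttnbp2. That is 5.41% of the silent neighbours, against 1.20% of all silent genes. The figures for all silent genes include the 49, which those for the neighbours leave out.

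Neighbours already expressed in Normal numbered 57, and in 29 of them (50.9%) at least 2 AML libraries lay above every Normal library, against 27.7% of all expressed genes. The libraries above Normal were not always those with the set on. For Catsper2, Cox10 and Znhit3 they were compound KO 1 and compound het 2, where the set was nearly off. For Mdm4 they were compound het 1 and 2. The share is thus no measure of neighbours that followed the set. Mcf2l, a nucleotide exchange factor next to F7, had 13.9, 59.6 and 76.9 CPM in compound KO 1, 2 and 3 and 71.5 and 37.5 CPM in compound het 1 and 2, against 5.51 to 21.3 CPM in Normal libraries. Il12a, a cytokine subunit gene next to Schip1, had 11.8, 86.2 and 94.5 CPM in compound KO 1, 2 and 3 and 56.9 and 42.6 CPM in compound het 1 and 2, against 4.41 to 12.2 CPM in Normal libraries. These neighbours were named after their values were seen. In compound het 2 Il12a lay above the Normal range while its neighbour Schip1, at 0.159 CPM, lay inside its own.

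The deposited table has further rows that carry a gene's identifier with the mark enh, 131 of them for 39 of the 49 genes. What region each row covers is not given in the sources used here. Summed per gene, these rows were above every Normal library in at least 2 AML libraries for 30 of the 39 genes (76.9%), against 16.1% of all genes with such rows and 12.2% of the other genes silent in Normal. The rule used the same contrast in the same libraries, and the other silent genes are those that failed it. Nothing is therefore read from the gap between these shares. For F7 the sum was 0.128, 17.9 and 25.8 CPM in compound KO 1, 2 and 3 and 46.1 and 0.849 CPM in compound het 1 and 2, against at most 0.936 CPM in Normal libraries. For Tmem108 it was 0.0425, 4.84 and 7.59 CPM in compound KO 1, 2 and 3 and 12.9 and 0.345 CPM in compound het 1 and 2, against at most 0.186 CPM in Normal libraries. For Pdzrn3 it was 0.213, 18.6 and 5.43 CPM in compound KO 1, 2 and 3 and 0.608 and 0 CPM in compound het 1 and 2, against at most 0.219 CPM in Normal libraries. In all 3 genes the enh rows were high in the libraries where the gene was high. Whether these rows lie inside the genes, so that they share reads with them, was not tested.

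Promoter sequences were read for what the genes share that the rule did not use. RefSeq windows were matched for 38 of the 49 genes, 50 windows in all. The median observed-to-expected CpG ratio was 0.599 in these windows and 0.604 in 19024 windows of 15548 protein-coding autosomal genes, and 50% of the set's windows and 50.4% of all windows were at 0.6 or more. Windows of genes below 1 CPM in all 17 libraries had a median ratio of 0.255, with 21.1% at 0.6 or more, so the set's promoters were closer in CpG content to promoters in general than to those of genes that stayed silent. This is a description of windows that share genes and families, with no test.

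**Figure D5:**
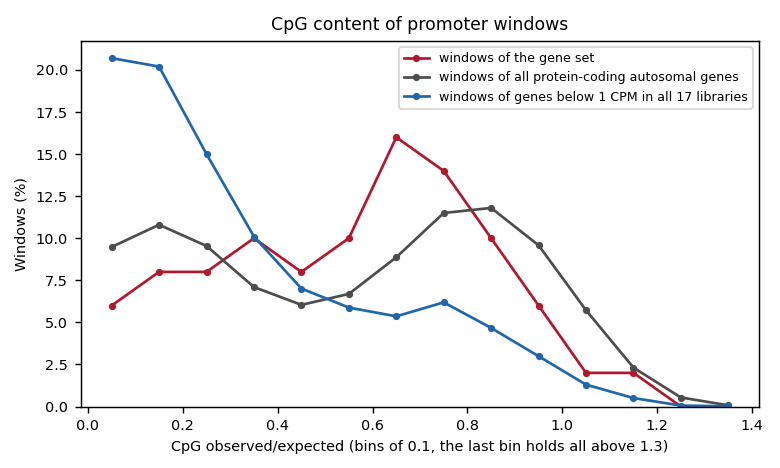
Share of promoter windows (%) by observed-to-expected CpG ratio in bins of 0.1, for the set's 50 windows (red), all windows (dark grey) and windows of genes below 1 CPM in all 17 libraries (blue). The red and grey lines run on to ratios around 1, while the blue line peaks below 0.2.

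The heptamer TGACTCA, the site bound by AP-1 (FOS and JUN dimers), was found on either strand (TGAGTCA on the other) in 7 of the 50 windows, or 14%. It was in 4.66% of all windows and in 6.15% of windows of genes silent in all 17 libraries. The 7 matches are printed with 17 bases on each side, gene strand, motif in capitals, as the places where this description can be checked. Their positions in GRCm38.p6 are chr1:58029732-58029772 (+) for Aox1, chr6:34709230-34709270 (+) for Cald1, chr6:49036509-49036549 (+) for Gpnmb and chr19:34067193-34067233 (+) for Lipn. For Me1 the position is chr9:86695897-86695937 (-), for Mt2 chr8:94172522-94172562 (+) and for Scel chr14:103513288-103513328 (+).
Aox1: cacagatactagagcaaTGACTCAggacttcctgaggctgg
Cald1: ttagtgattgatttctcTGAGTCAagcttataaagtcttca
Gpnmb: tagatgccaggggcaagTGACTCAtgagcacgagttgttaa
Lipn: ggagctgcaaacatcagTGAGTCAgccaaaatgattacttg
Me1: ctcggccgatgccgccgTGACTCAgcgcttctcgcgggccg
Mt2: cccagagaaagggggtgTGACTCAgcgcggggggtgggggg
Scel: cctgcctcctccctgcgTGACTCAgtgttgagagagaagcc

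The 7 genes with a match do not form a group by level: Aox1 was high in 3 AML libraries, while Me1 was at 0.453 CPM and Scel at 0.479 CPM in compound KO 3. GAGGAA, the core that PU.1 and other ETS factors bind, was found on either strand in 34% of the set's windows, against 27.2% of all windows and 27.9% of those of genes silent throughout. The longer AGAGGAAGT was in 0% of the set's windows and 1.04% of all. The E-box CACGTG was in 10% against 8.07% of all windows, the RUNX core TGTGGT in 20% against 14.5%, and TATAAA in 8% against 12%. A match is a string of letters and not a bound site.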

How the data were processed

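RNA of sorted cKit+ Lymph- Ery- bone marrow cells was sequenced in 17 libraries. The values are raw read counts per gene as deposited by the authors, one column per library, aligned with STAR to GRCm38 per the submitters' processing notes; the counting tool and its strand setting are not given in the sources used here. Of 47643 gene rows, 47224 matched GENCODE release M21, which gave gene type, position and exon length, and 48361 further rows marked enh were used only where named.

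Counts were divided by each library's total over gene rows and multiplied by 1000000 (CPM). The set leaves out chromosomes X and Y and 10 genes by name. Contrasts of genotypes were fitted with edgeR 4.0.16 (quasi-likelihood, robust, TMM, filterByExpr at 10 counts) over 6 genotype groups in R 4.3.3, with Benjamini-Hochberg adjustment over all genes at 0.05, and the script was tested on simulated data. Alternatives were DESeq2 1.42.0 and limma voom 3.58.1, other limits, and leaving out libraries. In addition to the role groups, genes were named by a rule: the 15 highest in CPM per kb, those nearest to each limit, list members and any that passed a contrast. The members, lists and roles were chosen with earlier results of these data known, and genes given only for contrast among libraries were picked after their values were seen. Of the 49 genes, 28 overlap another annotated gene, 25 of them on the opposite strand, and 5 (Adamts9, Dlec1, Pcdhgc3, Schip1 and Strc) overlap another protein-coding gene, so their counts are less certain. The values of 1 gene of the set are not reported here; it is counted in all totals, sums and medians.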

Additional observations from a re-analysis of the deposited data

Results flagged for a closer look

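A single AML library far from the other 4 was looked for in each of the 49 genes with Dixon's critical value. It marked 3 genes, and in each the high library was compound KO 2. The same 5 values chose the genes, so the usual chance rate of about 1 in 20 groups cannot be applied to this count, which is a description. Csn2 was at 56.1 CPM there, with the next library at 11.9 CPM. Pdzrn3 was at 34.4 CPM there, with the next library at 7.86 CPM. Fat1 was at 29.3 CPM there, with the next library at 7.49 CPM.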

How the results depend on the processing

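The set's size of 49 genes depends on its limits: 28 genes with a Normal limit of 0.5 CPM, 76 with 2 CPM, 111 with an AML limit of 2 CPM, 23 with 10 CPM, 28 when 3 AML libraries are asked for and 0 when all 5 are. TMM scaling gave 52 genes, 48 of them in the set. Leaving out 1 library gave 30 to 51 genes: 30 without compound het 1, 33 without compound KO 2, 42 without compound KO 3, and 49 to 51 without any other. Libraries numbered 8 to 17 in the titles gave 35, and in titles 1 to 7 only compound het 1 held the set, so the rule cannot be applied there. Without the 3 libraries that hold the genes, a choice made after seeing the data, 0 were left. In URE het Tet2 KO minus URE het Tet2 het, leaving out 1 library gave 0 to 2 members called higher, and over all genes the alternatives called 0 to 1015. In Tet2 KO minus WT, DESeq2 called 1 member lower, Pmp22 (adjusted p = 0.0177, and 0.0177 to 1 over all alternatives), which had 0 counts in Tet2 KO libraries and 1 in WT libraries. With genes silent in all 17 libraries as background, the median CpG ratio to compare with was 0.255 instead of 0.604. No paired analysis was possible because the library numbers in the titles are unique, so the genotypes share none.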

Other observations

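Of the genes silent in Normal, 56 were at 5 CPM or more in 1 AML library alone: 2 in compound KO 1, 26 in compound KO 2, 10 in compound KO 3, and 17 and 1 in compound het 1 and 2. The examples below were picked by their level. Shank2, a scaffold of nerve synapses, was at 62.8 CPM and Saa3, an acute-phase protein, at 54.5 CPM in compound KO 2, against at most 0.328 and 0.536 CPM in Normal libraries. Prox1, a homeobox factor of lymphatic vessels and liver, was at 37.3 CPM in compound KO 3, against at most 0.912 CPM in Normal libraries. Lgr6, a receptor for R-spondins, was at 15.2 CPM in compound het 1, against at most 0.410 CPM in Normal libraries. Compound KO 1, in which the set was nearly off, had Cftr, a chloride channel, at 13.7 CPM and Entpd3, an ectonucleotidase, at 6.38 CPM, against at most 1.00 and 0.735 CPM in Normal libraries.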
